A study of Mus musculus with 9 samples.

Results

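Protamines and transition proteins are small proteins, most of them basic, that pack the DNA of the sperm head. Their 5 genes (Prm1, Prm2, Prm3, Tnp1 and Tnp2) were followed here in whole testes of 3-week-old mice. The members were the rows of the gene table whose symbol was one of these names, and all 5 were found among its 22337 genes. RNA of 9 testes was sequenced as mRNA libraries, with 3 testes of each of 3 genotypes of Piwil4, the gene of a PIWI protein that acts with piRNAs. Wild-type testes (WT-WT) carried no knock-in allele, Piwil4 WT/R264W testes (WT-KI) carried 1 such allele and Piwil4 R264W/R264W testes (KI-KI) carried it on both. The allele is carried in every cell, was made by CRISPR-Cas9 in C57BL/6 zygotes, and no treatment was given. The labels name no litter or day of collection, so p-values measure the spread between these testes. The knock-in replaces a codon, which counts per gene do not show.

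In the seminiferous tubule, meiosis gives round spermatids, which then elongate into sperm. In elongating spermatids most histones are taken off the DNA, the transition proteins are laid down for a short time, and protamines replace them and close the chromatin. The mRNAs of these proteins are made earlier, in round spermatids, where they are stored before translation. At 3 weeks of age the first wave of spermatogenesis is reaching round spermatids. In RNA of a whole testis, fewer spermatids and less RNA per spermatid cannot be told apart.

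The reading frames show how unlike these proteins are. Of the 51 codons of Prm1, 28 (54.9%) were arginine codons and 9 were cysteine codons, read from the GENCODE transcript. Tnp1 had 55 codons, of which 11 were arginine and 10 lysine, with no cysteine codon. Both frames are given here with only the arginine codons in capitals. The basic residues, which bind DNA, include lysine too, and the lysine codons stay in lower case.

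Prm1: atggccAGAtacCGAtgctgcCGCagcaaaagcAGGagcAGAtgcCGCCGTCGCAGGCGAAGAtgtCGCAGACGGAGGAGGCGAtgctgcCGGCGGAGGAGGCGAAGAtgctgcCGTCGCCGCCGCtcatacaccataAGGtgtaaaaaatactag
Tnp1: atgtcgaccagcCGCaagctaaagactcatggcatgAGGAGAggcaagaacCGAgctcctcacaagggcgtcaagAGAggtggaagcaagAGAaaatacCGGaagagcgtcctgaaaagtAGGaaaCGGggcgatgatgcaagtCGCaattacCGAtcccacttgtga

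Prm2, which is made as a longer precursor and trimmed, had 107 codons with 38 for arginine (35.5%) and 16 for histidine. Tnp2 had 117 codons, of which 23.1% were for arginine or lysine and 22 were for serine. Prm3 stood apart from the other 4, with 2 arginine codons among 101 and 29.7% acidic codons. It bears the name of a protamine by its place in the gene cluster, while its product is acidic.

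Prm1, Prm2, Prm3 and Tnp2 lie next to one another on the minus strand of chromosome 16 within 17904 bases, and Tnp1 lies on the minus strand of chromosome 1. In the GRCm38 annotation Prm1 (ENSMUSG00000022501) spans chr16:10796326-10805839, Prm2 (ENSMUSG00000038015) chr16:10791380-10796134, Prm3 (ENSMUSG00000050058) chr16:10790505-10790914 and Tnp2 (ENSMUSG00000043050) chr16:10787936-10788660. Tnp1 (ENSMUSG00000026182) spans chr1:73015074-73015909. The annotation places 2 genes over part of Prm1 on the opposite strand (Gm46563 and Gm10343) and 1 over Tnp1 (1700027A15Rik). None of these had a row in the table, and since the strand setting of the counting is not given in the sources used here, reads of the partners cannot be told apart from reads of Prm1 and Tnp1.

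Because the 5 genes moved together over the testes, the 120 bases before their RefSeq transcription starts are shown, from the RefSeq table of GRCm38.p6 and written 5′ to 3′ on the strand of the gene. Capitals mark matches to TGANGTCA on either strand, a relaxed form of the cyclic AMP response element that the spermatid activator CREM binds, and to the TATA box forms TATAA and TATATA on the strand of the gene. For Prm1 and Prm2 the RefSeq start lies inside the longer GENCODE span given above, and both genes that overlap Prm1 lie upstream of its RefSeq start. The RefSeq starts of Tnp1 and Tnp2 also lie inside their GENCODE spans, by a few bases, so the last bases of their windows as written lie within the annotated gene. The windows are chr16:10796824-10796943 for Prm1, chr16:10792106-10792225 for Prm2, chr16:10790915-10791034 for Prm3, chr1:73015900-73016019 for Tnp1 and chr16:10788656-10788775 for Tnp2.

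Prm1: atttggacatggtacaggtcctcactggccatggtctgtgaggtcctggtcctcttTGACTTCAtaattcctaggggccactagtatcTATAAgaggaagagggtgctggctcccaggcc
Prm2: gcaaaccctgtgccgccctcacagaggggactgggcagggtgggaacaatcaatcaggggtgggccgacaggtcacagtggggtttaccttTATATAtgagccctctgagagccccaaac
Prm3: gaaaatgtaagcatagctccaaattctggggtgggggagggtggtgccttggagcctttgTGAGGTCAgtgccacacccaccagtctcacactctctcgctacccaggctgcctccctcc
Tnp1: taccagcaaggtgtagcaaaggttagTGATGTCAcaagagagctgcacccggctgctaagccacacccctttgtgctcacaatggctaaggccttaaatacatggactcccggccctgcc
Tnp2: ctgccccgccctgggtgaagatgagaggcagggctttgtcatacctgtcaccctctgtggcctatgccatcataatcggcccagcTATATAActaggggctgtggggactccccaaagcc

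TGANGTCA was present before Prm1 (64 to 57 bases before the start, on the opposite strand), Prm3 (60 to 53 bases) and Tnp1 (94 to 87 bases), and 5.07% of 32851 promoters held it in a window of 120 bases. The letters were not in the windows of Prm2 and Tnp2, and the full form TGACGTCA was in none of the 5 (1.24% of promoters). TATAA stood before Prm1 and Tnp2 (8.53% of promoters) and TATATA before Prm2 and Tnp2 (2.51%), and these forms overlap each other in Tnp2. The forms were chosen after these 5 promoters were seen, so the shares of all promoters give the scale only and no enrichment was tested. A match is a run of letters and not a measured binding site.

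The libraries held between 17964135 and 24279056 estimated counts per testis. At this depth 3 counts, taken as the floor of detection, made 0.124 to 0.167 CPM (counts scaled to the size of the library). Levels of 1 gene in different testes are given as CPM scaled by TMM, which corrects for differences in library composition, and levels of different genes are compared only as FPKM, which divides by transcript length. Markers of spermatogonia, meiotic spermatocytes and Sertoli cells were present in every testis. The epididymis list had 4 of its 6 genes (Lcn5, Lcn8, Lcn9 and Defb12) at 3 counts or fewer in each testis.

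The protamine and transition protein mRNAs differed widely among testes of the same genotype, and each genotype had testes with few and with many of them. Summed over the 5 genes, 5255 counts were found in wild-type testis 1, 2119 in Piwil4 WT/R264W testis 1 and 3570 in Piwil4 R264W/R264W testis 3. The other 6 testes held 9 to 314 counts. Each genotype thus had 1 high testis, which carried 98.3% of the summed CPM of the wild-type group, 92.9% of the Piwil4 WT/R264W group and 93.2% of the Piwil4 R264W/R264W group. From the lowest testis (0.473 CPM) to the highest (244.5 CPM) the sum rose 517-fold (exact 95% counting interval 272 to 1132). Even at the top, 1 in 4375 counts of the library came from these genes.

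Prm1, a protamine of mouse sperm, was measured at 41.8, 0.294 and 0.193 CPM in wild-type testes 1, 2 and 3. In Piwil4 WT/R264W testes 1, 2 and 3 it stood at 15.4, 0.335 and 0.105 CPM. The 3 Piwil4 R264W/R264W testes gave 0.268, 1.83 and 34.9 CPM. Testis 1 of the first 2 genotypes and testis 3 of the homozygotes were high, and the groups overlapped. Wild-type testis 2, Piwil4 WT/R264W testis 2 and Piwil4 R264W/R264W testis 1 had 6 counts each.

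Prm2, also a protamine of mouse sperm, was high in the same testes as Prm1. Its CPM was 59.6, 0.784 and 0.0964 in wild-type testes 1, 2 and 3 and 21.5, 1.79 and 0 in the heterozygous ones. Homozygous testes 1, 2 and 3 had 0.626, 2.36 and 47.3 CPM. The groups overlapped. Piwil4 WT/R264W testis 3 had no Prm2 count, so that the highest testis was at least 378-fold higher, with 3 counts set for the lowest.

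Tnp1, the smaller transition protein, was at 28.3, 0.882 and 0 CPM across the wild-type testes, numbered as before. The Piwil4 WT/R264W testes had 11.3, 1.51 and 0.158 CPM, and the Piwil4 R264W/R264W testes 0.134, 2.08 and 24.2 CPM. Again 1 testis of each genotype was high, with overlap between the groups. The highest testis lay at least 196-fold above the floor of the testis without a count.

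Tnp2, the other transition protein, had the highest FPKM of the 5 in the 3 high testes. Wild-type testes held 112.2, 1.18 and 0.578 CPM of Tnp2. For Piwil4 WT/R264W testes the values were 45.3, 2.79 and 0.105 CPM, and for Piwil4 R264W/R264W testes 0.983, 5.70 and 95.5 CPM. Its highest testis was 1068-fold above the lowest (exact 95% counting interval 296 to 8828), and the groups overlapped.

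Prm3, the acidic product of the cluster, had the lowest FPKM of the 5 in the 3 high testes. Wild-type testes gave 2.61, 0.0980 and 0.0482 CPM, and heterozygous testes gave 1.39, 0.335 and 0.105 CPM. The Piwil4 R264W/R264W testes had 0.223, 0.814 and 2.23 CPM. The testes that were high for the other 4 genes were high for Prm3 too, with a smaller fold from lowest to highest of 54.1 (9.32 to 2173), and the groups overlapped. Its largest count in any testis was 56.

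**Figure D1:**
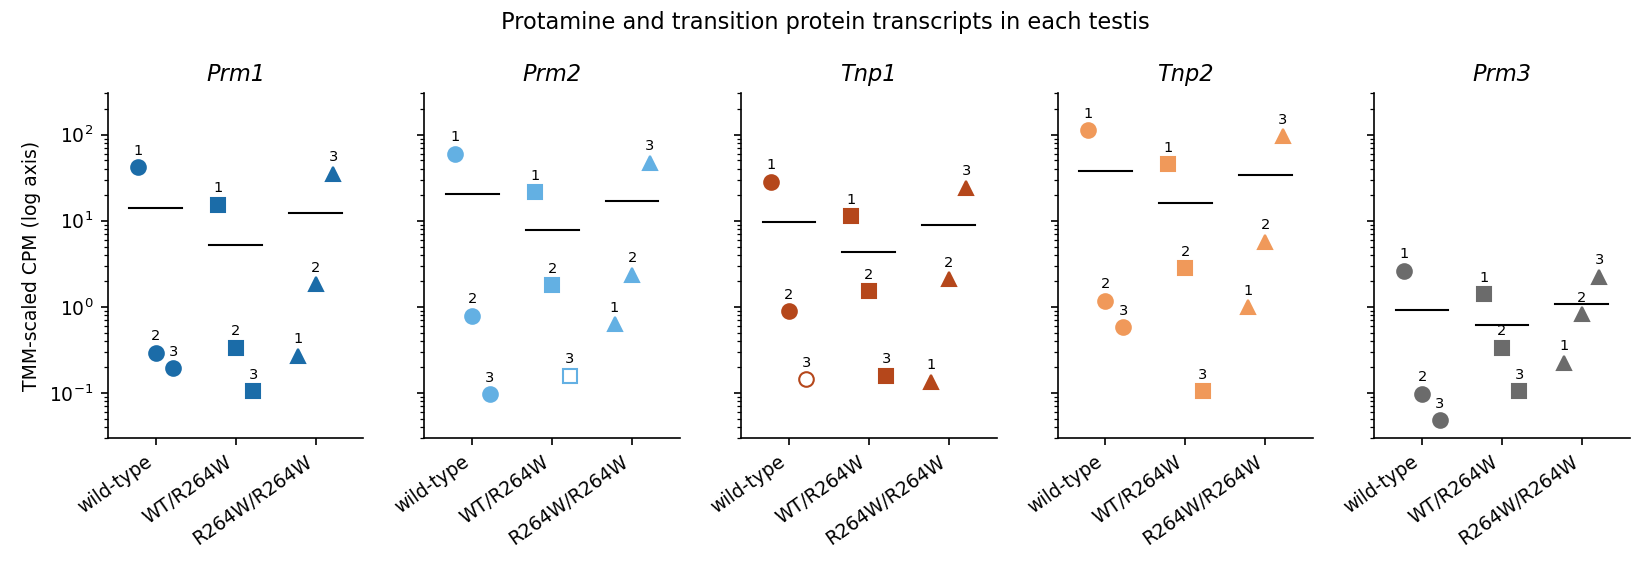
TMM-scaled CPM (log axis) of each gene in the 9 testes by Piwil4 genotype, with replicate numbers beside the points and a line at the group mean; open symbols have no count and are drawn at the level of 3 counts. In each genotype 1 testis stands apart (wild-type 1, WT/R264W 1 and R264W/R264W 3) and the groups overlap for all 5 genes.

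Set against the whole table, these genes were among those that varied most. On log2 CPM with a prior count of 1 the range over the 9 testes was 10.27 for Prm2, 9.52 for Tnp2, 9.20 for Tnp1 and 8.09 for Prm1. Among the 14476 genes with a mean of at least 1 CPM, they ranked 2nd, 7th, 11th and 37th, where the median gene had a range of 0.58. They passed that minimum mainly through the high testes, so the ranks are a description and no test. Their lowest testes had 0 counts (Prm2 and Tnp1) or 2 counts (Prm1 and Tnp2), so the size of these ranges depends on the prior count. Prm3, with a mean of 0.872 CPM, fell under that minimum and had a range of 4.78. The 5 genes moved together, with Pearson correlations between pairs of 0.924 to 0.991 over the 9 testes, given as a description since the points share library and depth.

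Whether the genotypes differed was tested with edgeR on the counts, 2 genotypes at a time. In Piwil4 R264W/R264W against wild-type testes none of the 5 genes was called at an adjusted p under 0.05, where 0% of the 15543 genes tested were called. At an unadjusted p under 0.05 the count was 0 of 5, beside 1.26% of all genes. Prm1 averaged 12.4 ± 19.6 CPM (SD, n = 3) in the homozygotes and 14.1 ± 24.01 CPM in the wild type. The log2 fold change of Prm1 was -0.20 (SE 2.12, adjusted p = 0.9998 by edgeR).

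The other members gave the same picture in that comparison. Tnp2 averaged 34.0 ± 53.2 CPM in the homozygotes against 38.0 ± 64.3 CPM in the wild type (SD, n = 3), a log2 fold change of -0.17 (SE 2.08). Log2 fold changes were -0.27 for Prm2 (SE 2.10), -0.15 for Tnp1 (SE 2.05) and 0.21 for Prm3 (SE 1.36). The exact two-sided permutation test on CPM gave p = 0.8 for Prm3 and 0.9 for the other 4, where 3 testes against 3 cannot give a p under 0.1. The median SE over all genes tested was 0.17, so that a difference in these genes would have had to be far larger than in most genes to be seen.

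The sign of these differences rested on single testes. Without wild-type testis 1 the log2 fold changes of Prm1, Prm2, Tnp1 and Tnp2 were 5.62, 5.23, 4.30 and 5.26. In that fit Prm1, Prm3 and Tnp2 passed an unadjusted p under 0.05, as did 7.44% of the 15655 genes tested, and none passed after adjustment. Leaving out Piwil4 R264W/R264W testis 1 or 2 also turned these 4 genes to values above 0 (0.25 to 0.43). Prm3 turned below 0 without wild-type testis 2 (-0.30), wild-type testis 3 (-0.33) or Piwil4 R264W/R264W testis 3 (-0.81).

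Between homozygous and heterozygous testes the means were higher in the homozygotes, and the difference was within the spread. Tnp2 averaged 34.0 ± 53.2 CPM in the homozygotes and 16.1 ± 25.4 CPM in the heterozygotes (SD, n = 3). None of the 5 was called at an adjusted p under 0.05 (0% of 15463 genes) or at an unadjusted p under 0.05 (2.22% of genes). Log2 fold changes of Piwil4 R264W/R264W against Piwil4 WT/R264W were 1.20 for Prm1 (SE 1.91), 1.10 for Prm2 (SE 1.86), 1.002 for Tnp1 (SE 1.69), 1.07 for Tnp2 (SE 1.89) and 0.76 for Prm3 (SE 1.02). The adjusted p by edgeR was 0.948 for each of them, and the exact permutation p was 0.7 for Tnp1 and 0.6 for the rest. Without Piwil4 R264W/R264W testis 3 all 5 turned, to between -2.37 (Prm2) and -0.25 (Prm3).

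Heterozygous testes were compared with the same wild-type testes, and Prm2 averaged 7.75 ± 11.9 CPM in them and 20.2 ± 34.1 CPM in the wild type (SD, n = 3). The low count filter kept Prm2, Tnp1 and Tnp2 in this pair and removed Prm1 and Prm3, whose values are from the fit without it. Of the 3 genes kept none was called after adjustment (0% of 15413 genes) or at an unadjusted p under 0.05 (1.11% of genes). Log2 fold changes were -1.38 for Prm2 (SE 2.18), -1.16 for Tnp1 (SE 1.94), -1.24 for Tnp2 (SE 2.14), -1.40 for Prm1 (SE 2.09) and -0.56 for Prm3 (SE 1.38). The exact permutation p ranged from 0.7 (Prm1) to 1 (Prm3). Without wild-type testis 1 the 3 genes kept turned to 4.13 (Prm2), 3.30 (Tnp1) and 4.20 (Tnp2). The comparisons share testes pairwise and are not independent of one another.

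The stage of the first wave was followed with genes of round spermatids. A score was taken as the mean log2 CPM of 18 such genes (Acrv1, Spaca1, Izumo1, Catsper1, Tssk1, Sun5 and others), none of which is a protamine or transition protein. Wild-type testes 1, 2 and 3 scored 6.58, 4.64 and 3.86. Heterozygous testes scored 5.88, 5.48 and 3.35, and homozygous testes 4.73, 5.35 and 6.45. Within each genotype the order of the 3 testes by this score was also their order by the summed CPM of the 5 genes. Over all 9 testes the orders differed only by 2 exchanges of neighbours, Piwil4 WT/R264W testis 2 with Piwil4 R264W/R264W testis 2 and wild-type testis 2 with Piwil4 R264W/R264W testis 1.

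Each of the 5 genes rose with the score over the 9 testes. Prm2 had the closest relation, with Pearson's r = 0.984 (exact permutation p = 1.65e-05) and Spearman's rho = 0.967 (exact permutation p = 0.000165). For Tnp2 r was 0.964 and rho 0.967, for Prm3 0.929 and 0.933, for Tnp1 0.926 and 0.90, and for Prm1 0.896 and 0.967. The largest exact permutation p among the 5 genes was 0.000694 for r (Prm1) and 0.00203 for rho (Tnp1). Without the 2 testes farthest from the median score, Piwil4 WT/R264W testis 3 and wild-type testis 3, r was 0.930 to 0.969. These 2 had the lowest scores, so the 3 high testes stayed in. These are 5 relations of genes that move together, over testes that share depth and scaling with the score, and with 3 testes a genotype no correlation was computed within one. Both the score and the 5 genes are of spermatids, and all were chosen with earlier results of these data known. The p-values are thus a description. Such likeness was common, since 1160 of 14472 genes had r over 0.9 with the mean of the 5 genes.

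A rise of 1 unit of the score went with a rise of 3.21 log2 units of Prm2, 2.97 of Tnp2, 2.74 of Tnp1, 2.67 of Prm1 and 1.52 of Prm3. These are slopes of a straight line, and the rise was not even. Prm1 was at -2.05 log2 CPM at a score of 3.86 (wild-type testis 3). It was at 0.91 at 5.35 (Piwil4 R264W/R264W testis 2) and -1.38 at 5.48 (Piwil4 WT/R264W testis 2). At 5.88 (Piwil4 WT/R264W testis 1) it was at 3.95. Each slope sets a single gene against an average of 18 genes, whose own ranges over the 9 testes ran from 0.54 (Spata16) to 5.27 (Sun5) log2 units. The range of Prm3 (4.78) was below that of Sun5, and those of the other members (8.09 to 10.27) were above it. The slopes moved with the prior count, from 3.42 at 0.5 to 2.85 at 3 for Prm2, from 2.90 to 2.43 for Tnp1 and from 1.62 to 1.26 for Prm3.

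**Figure D2:**
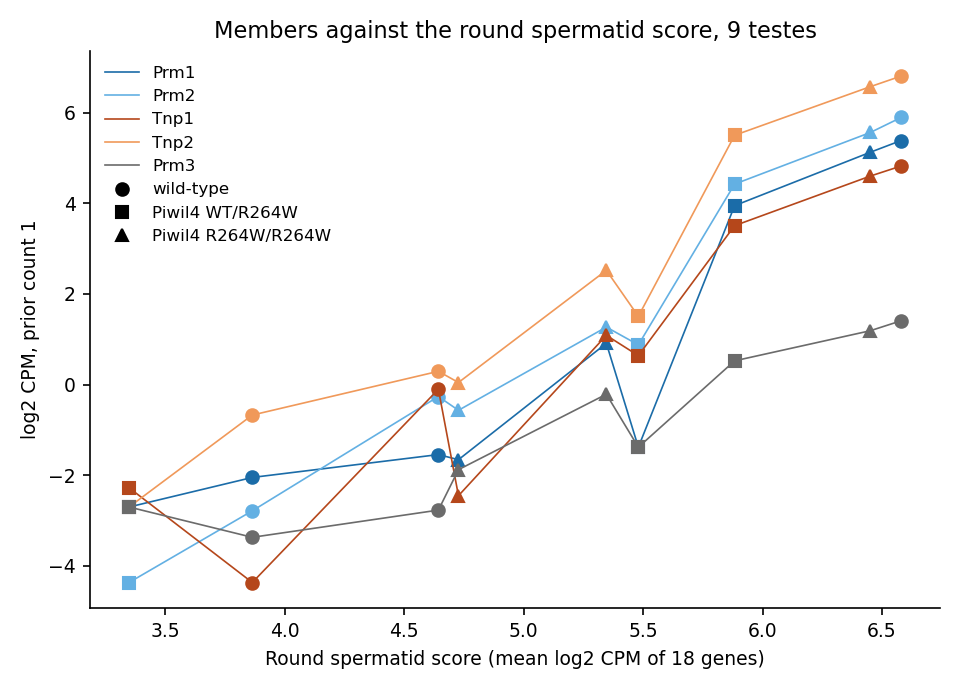
Log2 CPM (prior count 1) of each gene against the round spermatid score, the mean log2 CPM of 18 other genes, in 9 testes; colours mark genes and symbols Piwil4 genotypes. The lines join testes in order of score, and the 3 testes with scores of 5.88, 6.45 and 6.58, 1 of each genotype, have the highest level of all 5 genes.

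With the score as a covariate in 1 fit of the 9 testes the errors of the genotype differences were narrower. The differences were smaller in size for all 5 genes in the comparisons with Piwil4 WT/R264W testes, and for Prm1, Prm2 and Tnp2, but not Tnp1 and Prm3, in homozygous against wild-type testes. In Piwil4 R264W/R264W against wild-type testes the log2 fold changes were 0.06 for Prm1 (SE 0.54), -0.06 for Prm2 (SE 0.50), -0.18 for Tnp1 (SE 0.51), -0.03 for Tnp2 (SE 0.59) and 0.44 for Prm3 (SE 0.48). Against Piwil4 WT/R264W testes they lay between -0.47 (Prm2, SE 0.38) and 0.13 (Prm3, SE 0.48), and 4 of the 5 changed sign from the fit without the score. Heterozygous against wild-type testes gave 0.25 (Tnp1, SE 0.50) to 0.45 (Prm1, SE 0.65), and all 5 changed sign. None was called at an adjusted p under 0.05 in any of the 3 comparisons, where 0 of the 15771 genes tested were called. The score comes from the same libraries, so it is no outside measure of the stage of the testis.

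**Figure D3:**
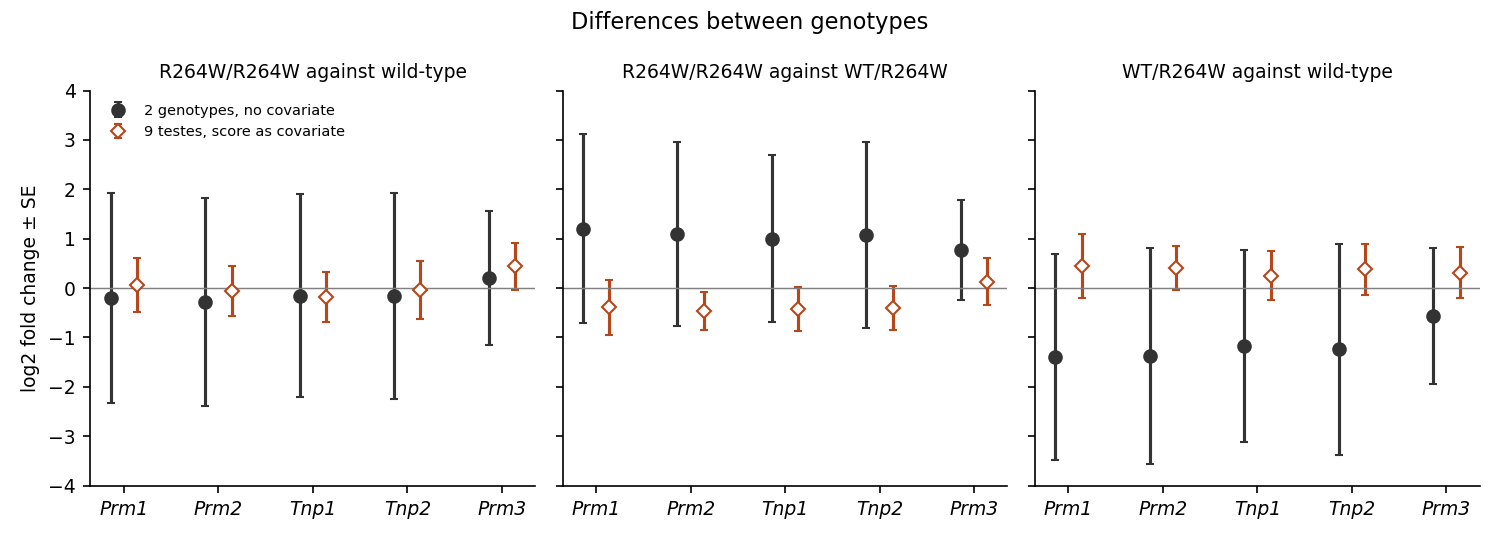
Log2 fold change with its SE of each gene in the 3 genotype comparisons, from the fit of 2 genotypes (filled circles) and from the fit of 9 testes with the round spermatid score as covariate (open diamonds). SEs of 1.02 to 2.18 without the score stand beside 0.38 to 0.65 with it, and no gene was called in either fit.

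The elongating spermatid list, with sperm tail and glycolysis genes such as Odf1, Akap4 and Gapdhs, moved with the 5 genes and had the same top 3 testes. Its score ran from 0.14 in Piwil4 WT/R264W testis 3 to 6.19 in wild-type testis 1, a span of 6.04, beside 3.23 for the round spermatid score and 7.82 for the mean of the 5 genes. Pachytene spermatocytes, the meiotic cells one step earlier, had a score within 7.93 to 8.30, and early meiotic prophase within 6.69 to 7.02. The spermatogonia score was between 3.11 in wild-type testis 1 and 3.83 in Piwil4 WT/R264W testis 3, the testes that were highest and lowest for the 5 genes, and was second highest (3.76) in Piwil4 WT/R264W testis 1, a high testis.

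Somatic lists were looked at for the same testes. All 7 Leydig cell genes were above 3 counts in at least 1 testis, and their summed level was 178.1 to 421.3 CPM in wild-type, 179.2 to 290.2 CPM in Piwil4 WT/R264W and 281.5 to 443.8 CPM in Piwil4 R264W/R264W testes. The Leydig score was highest in Piwil4 R264W/R264W testes 2 and 3 and wild-type testis 1, of which testis 2 was not among the 3 high ones. Fat genes summed to 5.05 to 11.03, 4.52 to 10.9 and 5.72 to 27.2 CPM in the same order, with the highest value in Piwil4 R264W/R264W testis 3. The epididymis list reached 45.4 CPM in Piwil4 R264W/R264W testis 1, where the 5 genes summed to 2.23 CPM, and 11.5 CPM at most elsewhere. The part of these cells in the level of the 5 genes was not tested.

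In the 3 high testes, 1 of each genotype, the 5 genes kept nearly the same proportions. Tnp2 made up 45.9% of their counts in wild-type testis 1 (exact 95% interval 44.5 to 47.3), 47.8% in Piwil4 WT/R264W testis 1 (45.6 to 49.9) and 46.8% in Piwil4 R264W/R264W testis 3 (45.1 to 48.4). The share of Prm2 was 24.4%, 22.6% and 23.2% in these testes. That of Prm1 was 17.1%, 16.2% and 17.1%, and that of Tnp1 11.6%, 11.9% and 11.9%. Prm3 made up 1.07%, 1.46% and 1.09%. Intervals of each gene overlapped between the 3 testes, although their summed counts ran from 2119 to 5255. Intervals cover counting error only, since reads are not independent molecules.

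On FPKM the order in these 3 testes was Tnp2, Prm2, Prm1, Tnp1 and Prm3. The ratio of Prm2 to Prm1 was 1.08, 1.05 and 1.02 in wild-type testis 1, Piwil4 WT/R264W testis 1 and Piwil4 R264W/R264W testis 3. Tnp2 had 3.13, 3.16 and 3.11 times the FPKM of Tnp1. Per length, Prm3 had 0.0713, 0.103 and 0.0730 times the FPKM of Prm1. The testes with the most of these mRNAs thus differed little in the balance of Prm1, Prm2, Tnp1 and Tnp2. Prm3 varied more against Prm1, on 56, 31 and 39 counts of Prm3.

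In the 6 testes with fewer counts, 6 of 30 shares had an interval apart from that of the high testis of the same genotype, in 5 testes and for Prm1, Tnp1 and Prm3 only. No share of Prm2 or Tnp2 did. That of Tnp2 had an interval that overlapped that of the high testis of its genotype in each of the 6, as in Piwil4 R264W/R264W testis 2 (44.6%, 39.0 to 50.3). In wild-type testis 3, with 19 counts, the intervals of all 5 shares overlapped those of wild-type testis 1. In Piwil4 WT/R264W testis 2, with 121 counts and a score of 5.48, Prm1 made 4.96% (exact 95% interval 1.84 to 10.5) and Tnp1 22.3% (15.3 to 30.8), outside the intervals of these shares in the high testis of that genotype (14.7 to 17.9 and 10.6 to 13.4). Tnp1 also made a larger share in wild-type testis 2, at 27.3% (17.0 to 39.6) of 66 counts, against 10.7 to 12.5 in wild-type testis 1. Prm3 made 6.37% (3.93 to 9.67) of 314 counts in Piwil4 R264W/R264W testis 2 and 1.09% (0.778 to 1.49) in testis 3. Its share was also apart from the high testis in Piwil4 R264W/R264W testis 1 and Piwil4 WT/R264W testis 3, on 5 and 2 counts. On FPKM, Tnp1 was above Prm1 in these 3 testes with middle levels (3.21, 4.86 and 1.22 times in wild-type testis 2, Piwil4 WT/R264W testis 2 and Piwil4 R264W/R264W testis 2), and below it in the 3 high ones (0.726 to 0.789 times). The first 2 of these ratios rest on 6 counts of Prm1. In Piwil4 R264W/R264W testis 1, with 50 counts, Tnp1 was at 0.526 times the FPKM of Prm1 on 3 and 6 counts. It was at 1.61 times in Piwil4 WT/R264W testis 3, on 3 and 2 counts. In wild-type testis 3 Tnp1 had no count beside 4 counts of Prm1. These testes were looked at one by one and the proportions were not compared between genotypes.

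**Figure D4:**
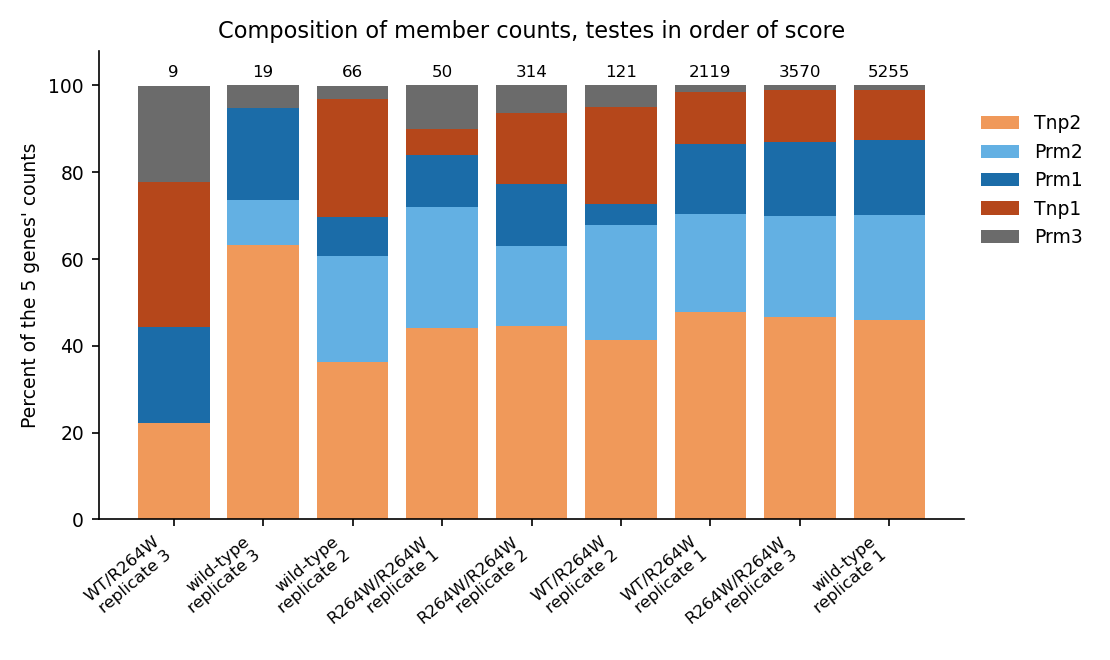
Percent of the summed counts of the 5 genes that each gene made up, with testes in order of the round spermatid score from lowest (left) to highest and the summed counts above the bars. The 3 testes on the right, 1 of each genotype, have 45.9% to 47.8% Tnp2, while testes to the left rest on 9 to 314 counts.

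The other genes of chromatin packaging were taken from 4 lists with 33 genes in all. In the 3 comparisons 31, 31 and 30 of them could be tested, and none was called at an adjusted or an unadjusted p under 0.05. Over all genes tested 0% were called at an adjusted p, and 1.26%, 2.22% and 1.11% at an unadjusted p. The lists' median log2 fold change was -0.0021 in homozygous against wild-type testes, 0.14 against heterozygous testes and -0.11 in heterozygous against wild-type testes, beside -0.01, 0.01 and -0.02 over all genes. Over the 9 testes 13 of the 33 genes had a range of more than 2-fold.

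The genes that act on transcription in spermatids were mostly well expressed also in the testes with few protamine counts. Kdm3a, a histone demethylase that acts on the promoters of Prm1 and Tnp1, had 365.1 to 417.0 CPM in the 9 testes, with its lowest level in a testis high for protamines (Piwil4 R264W/R264W testis 3). Rfx2, a transcription factor of spermatids, ran from 266.6 to 468.3 CPM and Tbpl1, a TBP-like factor, from 299.2 to 415.0 CPM. Crem itself, the activator whose element was searched above, ran from 115.7 to 201.7 CPM. Its coactivator Fhl5 went from 0.735 to 57.0 CPM, and Kif17, a motor protein that moves Fhl5 out of the nucleus, from 14.4 to 153.4 CPM, both lowest in Piwil4 WT/R264W testis 3 and highest in wild-type testis 1. In this list 3 of 10 genes (Fhl5, Kif17 and Sox30) had a range of more than 2-fold. Over the 9 testes Pearson's r with the round spermatid score was 0.96 for Crem, 0.84 for Tbpl1 and 0.83 for Rfx2. It was 0.99 for Fhl5, 0.998 for Kif17, 0.93 for Sox30 and -0.52 for Kdm3a.

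Storage and translation genes differed by less than 2-fold between testes. Papolb, a poly(A) polymerase of the testis, had the widest range of this list, from 442.9 to 815.9 CPM. Ybx3 and Ybx2, the Y-box proteins that bind stored spermatid mRNAs, had 1365 to 2189 CPM and 1343 to 2022 CPM. Piwil1, another PIWI protein of spermatocytes and round spermatids, had 773.0 to 905.8 CPM. In this list 0 of 6 genes had a range of more than 2-fold.

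Histone variants of spermatids were closer to the 5 genes. H1f9, a linker histone of elongating spermatids, ran from 5.04 to 103.0 CPM, and H1f7, a linker histone of the same cells, from 0.263 to 65.8 CPM. H2al2a, a variant that opens nucleosomes to the transition proteins, ran from 0 to 7.77 CPM. These 3 were highest in wild-type testis 1. H2bc1 and H2ac1 had under 0.3 CPM in all testes. All 6 genes of the list had a range of more than 2-fold, which for these last 2 rests on a few counts.

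Among 11 genes of histone removal 4 had such a range. Chd5, a chromatin remodeller of spermatids, ran from 19.1 to 233.0 CPM, Tssk6, a spermatid kinase, from 1.12 to 23.5 CPM, Camk4, a kinase known to phosphorylate Prm2, from 1.58 to 12.7 CPM and Cdyl, a chromodomain protein, from 22.6 to 90.1 CPM, each with its highest level in wild-type testis 1. The 3 most abundant genes of the list varied less. Phf7, which ubiquitinates histones, had 1957 to 2751 CPM, Psme4, an activator of the proteasome, 553.9 to 929.1 CPM and Brdt, a bromodomain protein, 343.7 to 427.4 CPM.

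**Figure D5:**
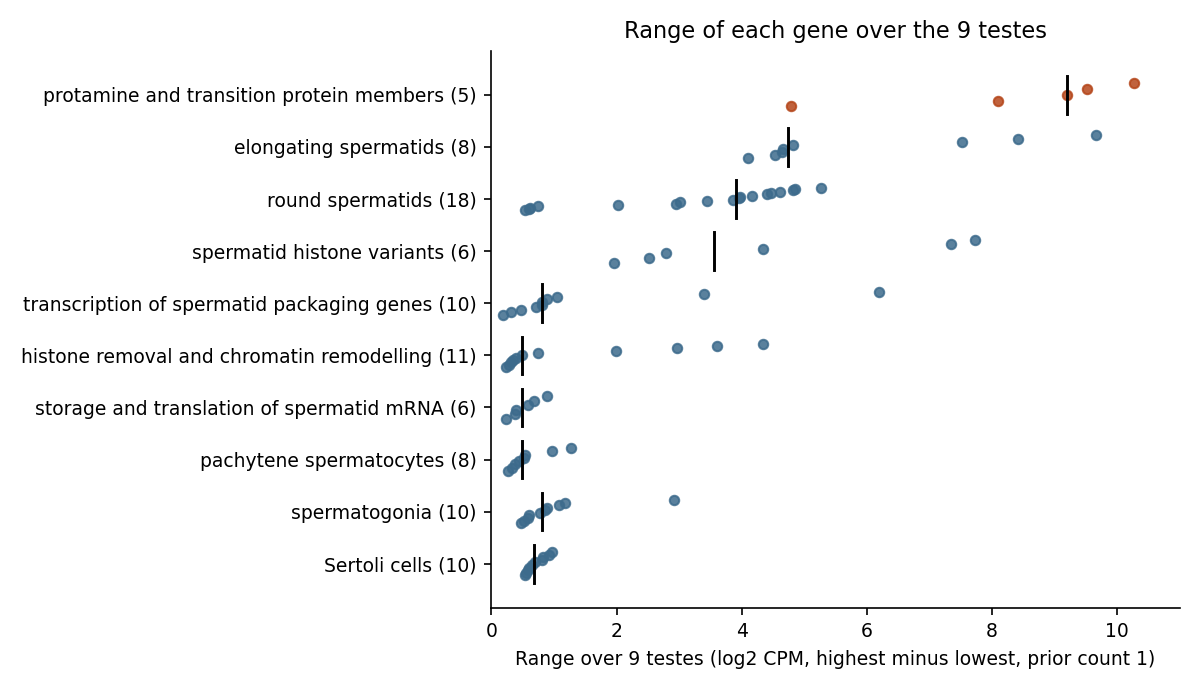
Range over the 9 testes of each gene (log2 CPM, highest minus lowest, prior count 1) by gene list, with the number of genes in parentheses and a line at the median of each list. The 5 members lie between 4.78 and 10.27. Elongating spermatid genes lie between 4.09 and 9.66 and spermatid histone variants between 1.95 and 7.7, so wide ranges are not particular to the members. The lists for mRNA storage, pachytene spermatocytes and Sertoli cells stay near or below 1.

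The genes whose level over the 9 testes was most like the mean of the 5 were Asb17 (r = 0.999), Akap1, Ccdc185, Fam71b, Aknad1, Cfap97d1, Prss52, Hspa1l, Spem1 and Dpysl3 (r = 0.994), among 14472 genes with a mean of at least 1 CPM. Such likeness was common, since 1160 of these genes had r over 0.9. Their ranges were from 2.92 log2 units for Dpysl3 to 9.14 for Fam71b. For single members the closest gene was 1700001C19Rik for Prm1, 4933411K16Rik for Prm2, Lrrd1 for Tnp1 and Slfnl1 for Tnp2, so that these 4 members each had another closest gene.

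Genes beside the cluster on chromosome 16 had narrow ranges. Socs1, an inhibitor of cytokine signalling, begins 2400 bases beyond Tnp2 and had 2.24 to 4.58 CPM, with its highest level in Piwil4 WT/R264W testis 2. Rmi2, a subunit of a DNA repair complex on the other side of Prm1, ran from 4.65 to 8.82 CPM. Clec16a, whose product acts in mitophagy, had 61.4 to 93.4 CPM, and Gm11172 had no count. All 4 varied by far less than the 5 genes, or were at 0. Within its narrow range Clec16a rose with the round spermatid score (r = 0.913), while r was -0.279 for Socs1 and -0.267 for Rmi2.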

How the data were processed

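Whole testes of 9 mice were grouped by genotype and replicate from the labels. The authors filtered reads with fastp (version 0.18.0) and assembled and quantified genes with StringTie (version 1.3.1), per the labels and the study's methods; the submitters' processing notes name the build mm39. The aligner and the counting tool are not given in the sources used here. The deposited table holds estimated counts, 89.2% of them whole, and FPKM values per gene and testis. The 5 members and all lists were chosen with earlier results of these data known, and the promoter motifs after the promoters were seen.

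Estimated counts were rounded and tested with edgeR (version 4.0.16; R version 4.3.3) in each pair of genotypes, after filterByExpr and TMM, by its two-sided quasi-likelihood test. P-values were adjusted over all genes tested (Benjamini-Hochberg). SEs were derived from the F statistic. For members that the filter dropped, values come from an unfiltered fit. The procedure was tested on simulated data. Each member's CPM was also compared by exact permutation. Log2 CPM used a prior count of 1. As alternatives, DESeq2 (version 1.42.0), DESeq2's size factors in edgeR, no TMM, no filter, at least 10 counts in every library, 1 fit of 9 libraries with and without a spermatid or pachytene score, the replicate number as a block, limma (version 3.58.1) with a pseudocount of 0.1 or 1 on log2 FPKM, and leaving out each testis were run. Named were the 5 members in full, the 3 genes of each packaging list with the highest mean CPM, the 10 genes most like the members' mean and the 3 most like each member (the closest is given, and that of Prm3 is not reported here), and table genes within 100 kb of a member. Crem, Papolb, Fhl5, Kif17, Sox30, Chd5, Tssk6, Camk4, Cdyl, H2bc1 and H2ac1 were named after their values were seen. Positions and sequences are from GENCODE and RefSeq on GRCm38, matched by gene identifier or symbol for all 5 members, with no conversion to the authors' build. Amino acid sequences were not used here. Intervals are exact (Clopper-Pearson, and the conditional binomial for ratios of counts).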

Additional observations from a re-analysis of the deposited data

How the results depend on the processing

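No member was called at an adjusted p under 0.05 by edgeR, DESeq2 or limma under any alternative, and the smallest adjusted p was 0.625. Calls were as rare over all genes. In every setting edgeR and limma called 0 genes, and DESeq2 called 1 of 19345, 5 of 19265 and 0 of 19269 in the 3 comparisons. Correlations with the round spermatid score kept their direction under other scalings, FPKM and prior counts of 0.5 and 3. DESeq2 gave no p for 9 of 15 member tests. With at least 10 counts in every library only Tnp2 was left, in R264W/R264W against wild-type testes. The signs of the fold changes did depend on the processing: 39 values turned under other settings and 104 kept their sign, and 23 turned and 63 kept it when a testis was left out. The cause was not tested. In 6 of the 9 testes the 5 genes together had 9 to 314 counts.

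In R264W/R264W against wild-type testes, log2 fold changes that turned were 0.064 (Prm1) with the round spermatid score. With the pachytene score they were 0.48 (Prm1), 0.64 (Prm2), 0.73 (Tnp1) and 0.55 (Tnp2). By limma they were 0.87, 1.09, 0.9998 and 0.91 in that order on log2(FPKM + 0.1), and 0.50, 0.52, 0.37 and 0.69 on log2(FPKM + 1). Against WT/R264W testes, they were -0.39 (Prm1), -0.47 (Prm2), -0.43 (Tnp1) and -0.41 (Tnp2) with the round spermatid score, and -3.36 (Prm1), -3.59 (Prm2), -0.82 (Prm3), -3.03 (Tnp1) and -3.25 (Tnp2) with the pachytene score. In WT/R264W against wild-type testes, they were 0.45 (Prm1), 0.41 (Prm2), 0.31 (Prm3), 0.25 (Tnp1) and 0.38 (Tnp2) with the round spermatid score, and 3.84, 4.23, 1.66, 3.76 and 3.801 with the pachytene score. By limma they were 0.44 (Prm3) and 0.58 (Tnp1) on log2(FPKM + 0.1) and 0.017 (Prm3) on log2(FPKM + 1).

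Leaving out each testis in turn gave -3.73 to 5.62 (Prm1), -3.75 to 5.23 (Prm2), -0.81 to 3.76 (Prm3), -3.12 to 4.30 (Tnp1) and -3.50 to 5.26 (Tnp2) in R264W/R264W against wild-type testes. Against WT/R264W testes the values were -2.33 to 5.77 (Prm1), -2.37 to 4.22 (Prm2), -0.25 to 2.26 (Prm3), -1.97 to 3.39 (Tnp1) and -2.27 to 4.55 (Tnp2). In WT/R264W against wild-type testes they were -4.51 to 4.13 (Prm2), -3.56 to 3.30 (Tnp1) and -4.73 to 4.20 (Tnp2).

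The replicate number as a block called no member either. In R264W/R264W against wild-type testes the replicate block gave 2.17 (Prm1), 1.45 (Prm2), 1.12 (Tnp1) and 2.002 (Tnp2). Deviations of same-numbered testes from their group means correlated at -0.734, 0.0652 and -0.722 in that pair, at -0.648, -0.152 and -0.734 between R264W/R264W and WT/R264W testes, and at 0.713, -0.0733 and 0.784 between WT/R264W and wild-type testes. The labels do not say what a number stands for, and not every pair was above 0.1, so the fit without the block was kept.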
